A study of Mus musculus with 6 samples.

Results

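The array labelled high glucose was compared directly with the array labelled High FFAs, which carried RNA of cells given the fatty acid palmitate. Every miRNA on the array was a candidate: 1247 miRNAs, measured by 3105 probes, of which 190 were detected on at least 1 of these 2 arrays and 161 on both. The study hybridised total RNA (100 ng each) of mProx24 cells, a mouse line of the proximal tubule of the kidney from strain C57B6, to 1-colour Agilent miRNA arrays, with 1 array for each of 6 conditions. Both cultures compared here were kept at 20% oxygen. The high glucose culture had high glucose with PBS, and the labels used here give no glucose concentration. The palmitate culture had normal glucose and 150 μM palmitate bound to 0.15% bovine serum albumin for 9 hours. No label names albumin without palmitate, and an effect of the fatty acid cannot be told apart from one of its carrier. The other 4 arrays carried RNA of control cells (20% oxygen, normal glucose, PBS), of cells at 1% oxygen, and of cells given low oxygen, high glucose and palmitate together, without or with 0.4 μg/ml rapamycin. The cultures at 1% oxygen had low oxygen for 12 hours before the stimulus. Palmitate in the triple cultures was likewise 150 μM with 0.15% albumin for 9 hours. Pretreatment with rapamycin lasted 12 hours. With 1 array per condition no difference between the conditions was tested. The standard errors (SE) below are over the repeated spots of a probe on an array, so they cover spot error and nothing of the spread between cultures.

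miRNAs are short RNAs, cut from hairpin precursors, that pair through their seed (the bases near the 5′ end) with messenger RNAs and lower the output of those messages. Each hairpin can give a product from its 5′ arm and its 3′ arm, named 5p and 3p, and families of miRNAs share a seed. In the diabetic kidney the cells of the proximal tubule meet filtered glucose and albumin-bound fatty acids together, and miR-21, miR-29, miR-30 and miR-192 are among the miRNAs most often studied there.

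The miRNAs below carried the comparison: 10 of those higher on the high glucose array, then 3 that were detected there and not on the palmitate array. Their mature sequences, from RefSeq with build GRCm38.p6, are given 5′ to 3′ with the seed (bases 2 to 8) in capitals, to show that they belong to no common seed family and that most are rich in G.
miR-5126: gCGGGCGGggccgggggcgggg
miR-2861: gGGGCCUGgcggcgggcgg
miR-3102-5p: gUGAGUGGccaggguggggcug
miR-135a-1-3p: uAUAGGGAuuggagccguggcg
miR-6538: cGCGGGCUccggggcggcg
miR-211-3p: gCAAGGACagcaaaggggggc
miR-6368: cUGGGAAGcaguggaggggag
miR-1934-3p: aGGAUGACgguggggcugguga
miR-2137: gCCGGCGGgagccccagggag
miR-6366: aGCUAAGGggcccggggagcca
miR-149-3p: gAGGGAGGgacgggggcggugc
miR-680: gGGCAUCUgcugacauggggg
miR-721: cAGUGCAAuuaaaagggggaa

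The 13 sequences held 13 different seeds. miR-3960, miR-6378 and miR-290-5p belong to the same groups by their values.

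On the array each miRNA is read by short DNA probes, deposited in the scanner files, that are complementary to its 3′ part. The brightest probe of each of these miRNAs is shown next, because runs of C recur in them; runs of at least 4 C are in capitals.
miR-5126 probe: CCCCgCCCCC
miR-2861 probe: ccgcccgcc
miR-3102-5p probe: cagCCCCaccctg
miR-135a-1-3p probe: cgccacggctcca
miR-6538 probe: cgccgCCCCg
miR-6378 probe: gcgtgtgtcctccc
miR-211-3p probe: gCCCCCCtttgct
miR-6368 probe: ctCCCCtccactg
miR-3960 probe: CCCCCgcctcc
miR-1934-3p probe: tcaccagCCCCacc
miR-2137 probe: ctccctggggctc
miR-6366 probe: tggctCCCCgg
miR-149-3p probe: gcaccgCCCCC
miR-680 probe: CCCCCatgtca
miR-721 probe: ttCCCCCttttaa
miR-290-5p probe: aaagtgCCCCCat

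Before any direction is given, the labels of these 2 arrays need a statement. The authors' deposited value table has a column for each sample, and the columns titled for these 2 samples each held the values of the other sample's scanner file. Within 0.1%, and after 1 factor per column, 146 of 206 values (70.9%) of the table's high glucose column equalled the summed signals in the palmitate scanner file, and 0 equalled those in its own. The table's palmitate column equalled the high glucose scanner file for 161 of 228 values (70.6%) and its own file for 0. The other 4 columns matched their own scanner files for 68.7% to 73.5% of values. The values without a match came from low summed signals, with medians of 7.67 and 8.06 against 54.0 and 58.1 among the matched values of these columns. Which of the 2 sources carries the right label cannot be told apart. All directions below follow the scanner files' samples, as high glucose minus palmitate on the log2 scale, and each of them is the opposite if the table's titles are the right ones.

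By the scanner files' labels, all called miRNAs were higher with high glucose. miR-5126, miR-2861 and miR-3102-5p were between 4.14-fold and 5.57-fold higher on the high glucose array, and miR-135a-1-3p, miR-6538, miR-6378, miR-211-3p, miR-6368, miR-3960, miR-1934-3p, miR-2137 and miR-6366 were between 1.62-fold and 3.11-fold higher. A miRNA was called when it was detected on both arrays (at least 0.5 of a probe's spots well above background), differed by at least 1.5-fold and differed by more than 2 SE. By this rule 12 of 161 miRNAs (7.45%) were higher on the high glucose array, 0 were lower and 149 had no call. Under the table's titles the same counts read as 12 higher with palmitate and 0 lower.

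Most of the 161 miRNAs differed little. The median difference over the 161 miRNAs was 0.02, with quartiles of -0.13 and 0.22, and 116 of them lay within 0.25 of 0. The levels of the 161 on both arrays had a Pearson r of 0.978 (across miRNAs, each no replicate of another). Under other scalings the median of all 161 ranged from -0.24 (75th percentile over all probes) to 0.19 (no scaling). The calls were then 10 higher and 4 lower with the 75th percentile over all probes, 10 and 3 with the median or with quantile normalisation, 12 and 2 with the spike-in probes, and 21 and 0 without scaling.

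**Figure D1:**
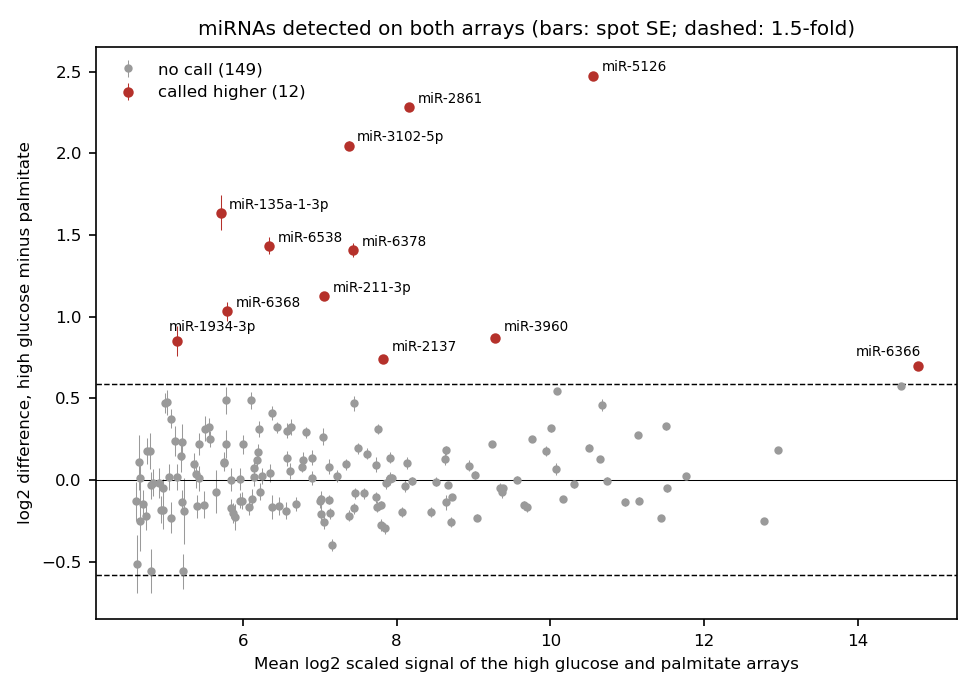
Log2 difference of high glucose minus palmitate (vertical axis) against the mean log2 scaled signal of the 2 arrays (horizontal axis) for the 161 miRNAs detected on both, with bars for the SE over spots and dashed lines at 1.5-fold. The 12 called miRNAs, in red, lie above the upper line at low, middle and high signal, and no point lies past the lower line.

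miR-5126 had the largest difference. Its signal, scaled so that the 75th percentile was equal on all arrays, was 3566 on the high glucose array and 641 on the palmitate array, a log2 difference of 2.48 (SE 0.016). The other arrays read 616 for control, 782 for low oxygen, 1615 for the triple stimuli and 2501 for the triple stimuli with rapamycin. The palmitate and control values were thus close together, and the 3 arrays of cells labelled as given high glucose were the 3 highest (with the labels exchanged, the 3 given palmitate). miR-2861, which is known to repress histone deacetylase 5 in bone-forming cells, read 633 with high glucose and 130 with palmitate, a difference of 2.28 (SE 0.026). It read 123 in control and 153 at low oxygen, and 306 and 468 on the triple arrays without and with rapamycin. miR-3102-5p read 338 against 81.8, a difference of 2.05 (SE 0.029), with 77.9 in control. For miR-2861 and miR-3102-5p the order of the 6 arrays was the same as for miR-5126.

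The next group of miRNAs was between 2.05-fold and 3.11-fold higher. miR-135a-1-3p, the 3p product of the hairpin that gives miR-135a, read 92.3 with high glucose and 29.7 with palmitate, a difference of 1.64 (SE 0.107), and was not detected in control. miR-6538 read 133 against 49.3, and control and low oxygen read 48.6 and 47.3. miR-6378 read 282 against 106, with 105 in control. These 3 miRNAs, too, had a palmitate value next to the control value. miR-211-3p, from the 3p arm of a hairpin inside the melastatin gene Trpm1, read 197 against 90.3, a difference of 1.13 (SE 0.025), with 79.3 in control. miR-6368 was different in kind: it read 79.2 with high glucose, 55.0 in control and 38.7 with palmitate, so that control lay between the compared arrays.

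The remaining calls were below 2-fold. miR-3960, which lies next to miR-2861 in the genome and is known with it from bone-forming cells, read 841 against 460, a difference of 0.87 (SE 0.013), with 407 in control and 388 at low oxygen. miR-1934-3p read 47.4 against 26.3, a difference of 0.85 (SE 0.094), close to the lower end of what the arrays detected. miR-2137 read 294 against 176, with 155 in control. miR-6366 was the brightest miRNA of both arrays and read 35901 with high glucose and 22136 with palmitate, a difference of 0.70 (SE 0.012). Here the palmitate array was the lowest of the 6, and high glucose was next to control, which read 38771.

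Just inside the 1.5-fold limit, with no call, lay miR-3963 (29569 against 19833, a difference of 0.58), miR-5100 (1319 against 904, 0.55) and miR-652-5p (81.8 against 58.3, 0.49). All 3, like miR-6366, had a palmitate value below control, which read 26834 for miR-3963, 1471 for miR-5100 and 86.0 for miR-652-5p. On the other side the largest differences were those of miR-615-3p, from the Hoxc5 locus, at -0.56 (30.7 with high glucose against 45.3), of miR-301a-3p at -0.56 (22.9 against 33.8) and of miR-99b-3p at -0.51 (20.7 against 29.5). All 3 were dim, with SE of 0.107, 0.134 and 0.179, and each rested on 1 detected probe.

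Detection also differed between the arrays. It was read from spots before scaling, when the high glucose array was the brighter one (75th percentile of 360 against 318). The spike-in control probes were then 0.27 higher on it as well. How much of the difference in detection follows from this brightness was not tested. The high glucose array detected 189 miRNAs and the palmitate array 162, with 28 seen on the former alone and 1, miR-298-5p, on the latter alone (18.7 against 23.2). A miRNA seen on 1 array has a lower bound rather than a fold, set against the palmitate array's lowest detected signal of 23.2, or against the miRNA's own palmitate signal where that was higher. The bound reached 1.5-fold for 4 of the 28 (14.3%). miR-149-3p read 79.7 on the high glucose array and 16.9, not well above background, on the palmitate array, and was at least 3.43-fold higher. miR-680 read 72.0 against 17.3 (at least 3.1-fold), and miR-721 read 69.2 against 11.9 (at least 2.98-fold). miR-290-5p, from the hairpin cluster known from embryonic stem cells, read 66.6 against 8.97 (at least 2.87-fold). These 4 were detected on both triple arrays as well, and not in control or at low oxygen. For the other 24 the bound was below 1.5-fold, from miR-5131 (1.49-fold; 34.5 against 14.6) and miR-1249-3p (1.47-fold; 34.1 against 20.4) downward, and for 6 of the 24 it was at or below 1. The named 10 with the largest bounds also held miR-1982-5p (1.30-fold), miR-328-5p and miR-1839-3p (both 1.23-fold) and miR-351-3p (1.18-fold), whose high glucose signals lay between 27.4 and 30.1.

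**Figure D2:**
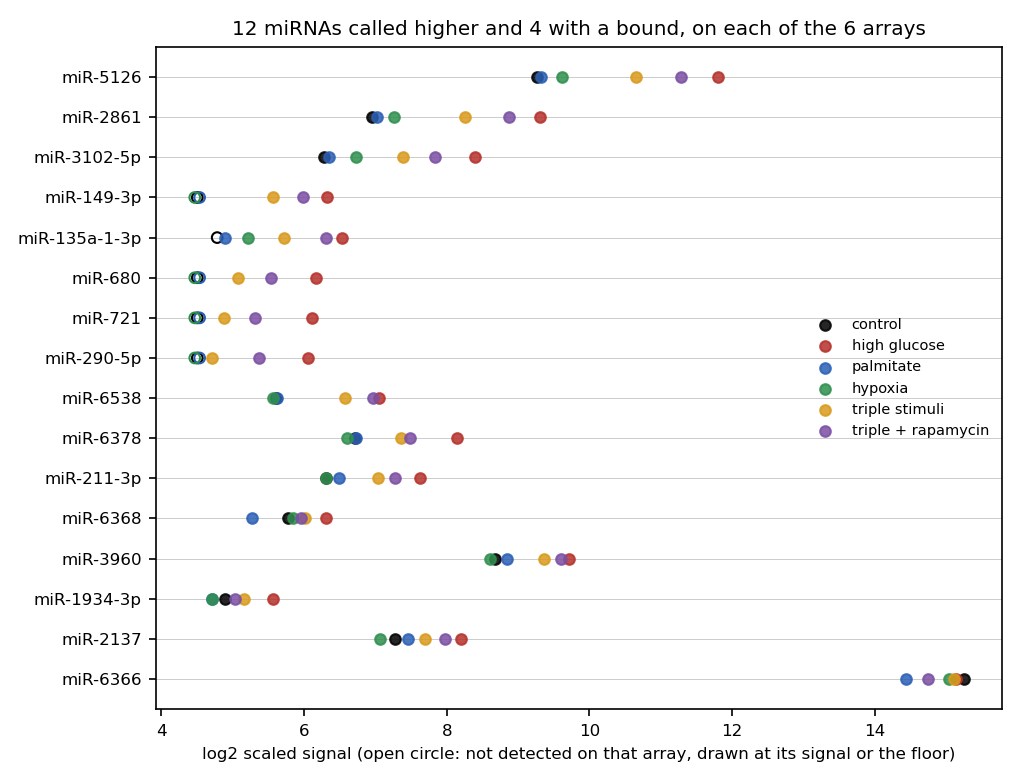
Log2 scaled signal (horizontal axis) of the 12 called miRNAs and the 4 with a bound of at least 1.5-fold, on each of the 6 arrays (colours), with open circles where a miRNA was not detected. High glucose, in red, is the right-most point for all but miR-6366, and palmitate, in blue, lies close to control for most.

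Set against control, the array labelled high glucose was the more distant of the compared arrays for most called miRNAs. High glucose was the highest of the 6 arrays for 11 of the 12 called miRNAs and at least 1.5-fold above control for 10, the exceptions being miR-6368 (0.53 on the log2 scale) and miR-6366 (-0.11). Palmitate lay within 1.5-fold of control for 11 of the 12, from -0.51 for miR-6368 to 0.19 for miR-211-3p, with miR-6366 outside at -0.81. By the rule of the calls, 4 of 155 miRNAs detected on both control and palmitate were called between those arrays. Between control and high glucose 11 of 162 were called. Lying close to control was thus common on the palmitate array and is no trait of the 12. The comparisons of high glucose and of palmitate with control share the control array, so their values are given side by side only. With the labels exchanged, these counts turn: palmitate is the highest array for 11 of the 12 and high glucose lies within 1.5-fold of control for 11. Both triple arrays, whose cells had high glucose and palmitate together, lay above the palmitate array for 12 of 12. The order high glucose, triple with rapamycin, triple without rapamycin held for the 3 highest arrays of 9 of the 12. The 12 were chosen by the values of the 2 compared arrays, so these ranks follow in part from that choice. The same ranks were not counted over the miRNAs without a call.

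For 12 of 12 called miRNAs, no spot of the brightest probe on one array overlapped the spots on the other. The call itself asks for a difference beyond spot error, and the share over all miRNAs was not counted. Of the uncalled miRNAs just inside the limit on the same side, miR-3963 and miR-5100 also had no overlap, and miR-652-5p had one. The 12 had 26 probes in all, of which 21 were detected on both arrays. Of these 21, 12 were the brightest probes, which were past 1.5-fold by the rule of the call. The other 9 were second probes, and 9 of 9 were past 1.5-fold, on the same RNA and arrays. The share among second probes of all miRNAs without a call was not counted. miR-135a-1-3p, miR-6378 and miR-1934-3p had no second probe detected on both arrays. Among the 9 second probes that were, the difference for miR-3102-5p was 2.61 beside 2.05 for the brightest, the widest gap at 0.57. The second probe of miR-2861 gave 1.81 and that of miR-5126 gave 2.32. For the 4 miRNAs with a bound, 13 of 14 probes were detected on the high glucose array. The count of 0 on the palmitate array is set by the definition, since 1 detected probe makes a miRNA detected.

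How many calls a pair of these arrays gives was counted for all 15 pairs by the same rule. The 14 other pairs had between 3 and 22 calls (median 11.5), and 7 of them had at least 12. The 10 pairs without the high glucose array had 3 to 17. The count of 12 therefore lies near the middle of what any 2 of these arrays gave, and the pairs share arrays.

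The miRNA groups tied by earlier work to the kidney, to glucose and to lipid were short, with 3 to 11 members detected on both arrays. Their counts of 0 called stand beside 7.45% called higher over all 161, and nothing is read from them. The kidney epithelium list had 12 members on the array and 7 detected on both, with 0 called and a median of -0.16, against 0.02 over all 161. miR-10b-5p was its lowest member (202 against 245, -0.28) and miR-30b-5p its highest (99.7 against 96.0, 0.05). The miR-30 family, abundant in renal epithelium, made up 5 of these 7 and had a median of -0.16 as well; miR-30a-5p read 327 against 375 (-0.20). Both medians lay below the all-miRNA median under each scaling, by 0.12 to 0.18 for miR-30 and by 0.14 to 0.18 for the longer list, but without scaling they were 0.02 and 0.01 and so no longer negative.

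The list for high glucose and the diabetic kidney had 6 of 15 members detected on both arrays, 0 called, and a median of 0.02. Its highest member was miR-21a-5p, a miRNA linked to fibrosis in the injured kidney, at 3251 against 2588 (0.33, SE 0.023), and its lowest was miR-23a-3p at -0.12. The miR-29 family, which represses collagen messages, had 3 of 3 members detected, 0 called and a median of 0.18. Its values were 0.01 for miR-29b-3p (242 against 241), 0.18 for miR-29a-3p and 0.26 for miR-29c-3p (144 against 120). That median turned to -0.08 with the 75th percentile over all probes, to -0.01 with the median and to -0.05 with quantile normalisation. It stayed above the all-miRNA median under each scaling, by 0.08 to 0.16. The list for insulin and glucose metabolism (7 of 12 detected on both) had 0 called and a median of 0.02, from -0.04 for miR-107-3p, a regulator of insulin sensitivity, to 0.26 for miR-29c-3p.

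For lipid metabolism 7 of 14 members were detected on both arrays, with 0 called and a median of -0.01. miR-370-3p, which targets the carnitine palmitoyltransferase gene Cpt1a, was the lowest at -0.22 (24.7 against 28.8) and miR-27a-3p, a brake on fat cell formation, the highest at 0.10 (290 against 270). miR-378a-3p, encoded within Ppargc1b, was detected on the high glucose array alone, with a bound of 1.13-fold (27.6 against 24.5). In the inflammation list (5 of 10 detected on both) 0 were called, and the median was -0.08, or 0.09 without scaling. Its members ran from miR-181b-5p at -0.23 to miR-212-3p at 0.48 (38.1 against 27.4). The mTOR list, taken because the study used rapamycin, had 5 of 8 detected on both, 0 called and a median of 0.01, from miR-99b-5p at -0.30 (209 against 256) to miR-99a-5p at 0.11. miR-100-5p, of the same family, was seen on the high glucose array alone with a bound of 1.07-fold.

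The remaining families lay near 0 in the same way, with 0 called in each. Of the let-7 family 9 of 9 were detected on both arrays, with a median of -0.0046 and a range from -0.15 for let-7e-5p (767 against 854) to 0.14 for miR-98-5p (125 against 114). The growth-linked miR-17/92 cluster and its paralogs had 10 of 11 detected and a median of -0.01, from miR-19a-3p at -0.15 to miR-17-5p at 0.31 (50.8 against 40.8). The miR-15/16 family (4 of 5) had a median of 0.01, with miR-15b-5p at -0.17 and miR-15a-5p at 0.17, the miR-23/24/27 group (5 of 5) had one of -0.03, with miR-23b-3p at -0.22, and the p53 and apoptosis list (4 of 10) had one of 0.04. Both arrays were at 20% oxygen, and the low oxygen list (11 of 14) had a median of -0.03. Its best-known member, miR-210-3p, was detected on the high glucose array alone at 24.1 against 21.2, a bound of 1.04-fold.

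**Figure D3:**
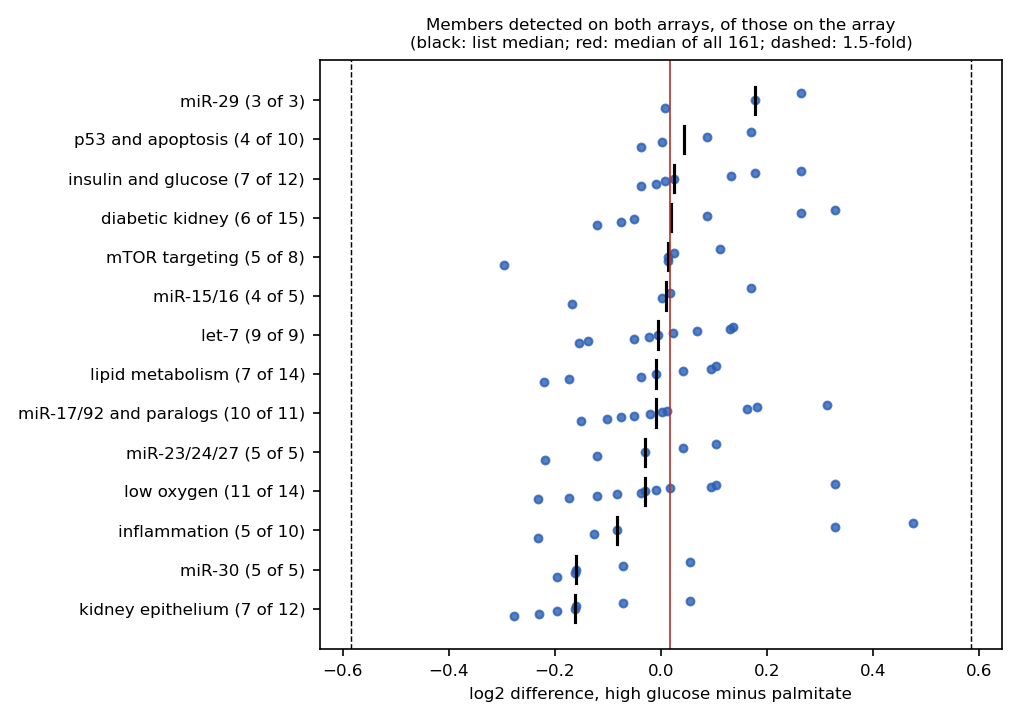
Log2 difference of high glucose minus palmitate (horizontal axis) for each member detected on both arrays of the 14 miRNA lists (vertical axis, with members detected of those on the array), with black bars at the list medians, a red line at the median of all 161 and dashed lines at 1.5-fold. No point reaches a dashed line, and the kidney epithelium and miR-30 lists have the lowest medians at -0.16.

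Other bright miRNAs were also close. let-7f-5p read 3503 against 3447 (0.02) and let-7a-5p 2881 against 2985 (-0.05). miR-125b-5p read 2183 against 2383 (-0.13), miR-494-3p 2568 against 3016 (-0.23) and miR-6243 6416 against 7651 (-0.25). miR-1224-5p at 2486 against 2054 (0.28) and miR-5109 at 8519 against 7491 (0.19) lay on the other side. None of these 7 was called.

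Most calls were of miRNAs numbered 1000 and above, which entered the catalogue late. Of 449 such miRNAs on the array 48 were detected on both arrays, and 10 of the 48 were higher, 0 lower and 38 without a call, beside 12 of 161 (7.45%) over all miRNAs. Their median was 0.21, which was 0.13 to 0.19 above that of all miRNAs under each scaling, although with the 75th percentile over all probes it was itself -0.05. Their lowest member was miR-1897-3p at -0.40 (125 against 164). Only miR-135a-1-3p and miR-211-3p of the 12 called miRNAs have lower numbers.

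The identity of the cells was checked by the markers of the kidney and of other cell types. Of 11 miRNAs of the proximal tubule and kidney 7 were detected on both arrays, while miR-192-5p, miR-194-5p, miR-204-5p and miR-215-5p, which mark renal cortex, were not detected on either. The epithelial miR-200 family with miR-141 and miR-205 was at 0 of 6. Markers of blood, endothelium, fibroblasts (0 of 5), neurons (0 of 2) and hepatocytes (0 of 1) were not detected, also where the array carries them under older names, and of the muscle markers only miR-206-3p was, at 88.7 against 101.1 (-0.19). The 7 detected kidney markers were miR-30a-5p to miR-30e-5p with miR-10a-5p and miR-10b-5p. The most specific markers were thus missing, and the identity as a proximal tubular line rests on the label.

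Several measures of the arrays moved with the comparison. The share of miRNA spots well above background was 12.9% on the high glucose array and 11.4% on the palmitate array, and the 75th percentile before scaling was 360 and 318. The lowest detected signal after scaling was 20.7 on the high glucose array and 23.2 on the palmitate array. Scaling had divided their signals by 1.06 and 0.941. This gap comes from the scaling and is not read as a difference between the arrays. Outlier spots were left out at 4.31% and 4.30%, the local background had a median of 22 on both, and no spot was saturated. The 27 spike-in control probes differed by a median of 0.10 after scaling (from -0.26 to 0.25) and by 0.27 before it. Their part in the 12 calls was not tested.

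The called miRNAs were richer in G and C than the rest, a pattern looked for after the values were known and described without a test. Of the 161 miRNAs 134 (83.2%) had a mature sequence in RefSeq, among them 10 of the 12 called. G and C made up a median of 72.7% of the called sequences, 47.8% of those without a call and 50% of the 1017 sequenced miRNAs on the array. G alone made up 55.8% and 27.9% in the first 2 sets. A run of 4 G (GGGG, searched on the miRNA strand only) was in 8 of 10 called sequences (80.0%), in 9 of 124 without a call (7.26%) and in 84 of 1017 on the array (8.26%).

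The same held for the probes. A run of 4 C (CCCC, searched in the deposited probe letters as printed, one strand) was in the brightest probe of 8 of 12 called miRNAs (66.7%), of 8 of 149 without a call (5.37%) and of 52 of 1247 on the array (4.17%). It was in 4 of the 4 with a bound of at least 1.5-fold and in 8 of the 28 (28.6%) seen on the high glucose array alone. Read the other way, 16 of the 161 miRNAs had such a run, and 8 of these 16 (50%) were higher, with a median of 0.59. The other 8 ran from miR-652-5p at 0.49, through miR-361-5p at 0.24, miR-671-5p at 0.11 and miR-155-5p at -0.08, to miR-370-3p at -0.22. Of the 145 without a run 4 were higher (2.76%), namely miR-2861, miR-135a-1-3p, miR-6378 and miR-2137, and their median was 0.01.

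By content of G and C, the 44 sequences below 45% had a median difference of -0.02 and 0 calls, the 56 from 45% to 60% had -0.01 and 1 call, the 29 from 60% to 75% had 0.23 and 5 calls, and the 5 from 75% had 1.43 and 4 calls. Across the 134 miRNAs Pearson's r of G and C content with the difference was 0.589 and Spearman's rho was 0.322. These points share 2 arrays, so no p is given. The rho of the difference with the mean level was 0.068 over the 161. miR-721 had a bound past 1.5-fold with 42.9% of G and C, and its longest run is the ggggg near its 3′ end. What this pattern owes to the probes, the labelling or the RNA was not tested.

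**Figure D4:**
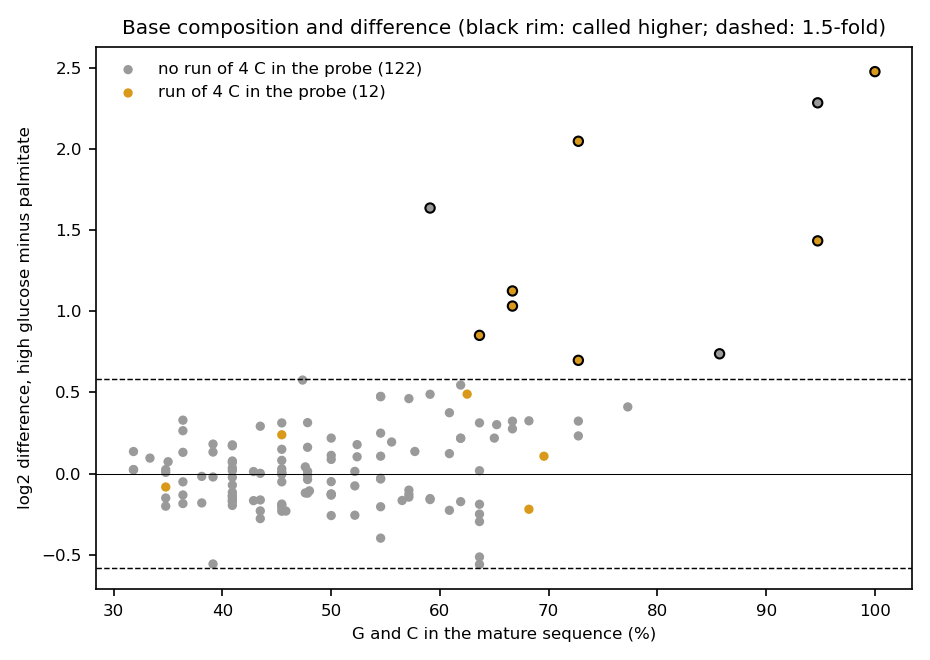
Log2 difference of high glucose minus palmitate (vertical axis) against the percentage of G and C in the mature sequence (horizontal axis) for the 134 miRNAs with a RefSeq sequence, in orange where the probe has a run of 4 C and with a black rim where called. The 5 sequences from 75% have a median of 1.43, and the 44 below 45% have one of -0.02.

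Seed families were compared next, since members of a family share targets. Among the 161 there were 18 groups of at least 2 miRNAs with the same seed, 50 miRNAs in all. No group held a call, beside 12 of 161 (7.45%) called higher over all miRNAs, and nothing is read from this 0. The widest span within a group was 0.41, between miR-99a-5p and miR-99b-5p. miR-721 shares the seed AGUGCAA with miR-301a-3p (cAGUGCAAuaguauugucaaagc) and miR-130a-3p, and these lay on different sides of 0: miR-721 had its bound on the side of high glucose, while miR-301a-3p was at -0.56 and miR-130a-3p at -0.20 (250 against 287). The 3 sequences differ outside the seed, where miR-721 alone of the printed pair carries a run of G.

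Products of the same hairpin did not always go together. Of 9 hairpins with both arms detected on both arrays 5 had the same sign, the median gap was 0.20, and 2 gaps were past 1.5-fold. In Mir125a the 5p arm was at -0.26 and the 3p arm at 0.49, and in Mir652 the 5p arm was at 0.49 and the 3p arm at -0.15. For miR-149 the 3p arm had the bound of 3.43-fold, and the 5p arm (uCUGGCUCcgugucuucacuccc) was at -0.23 (SE 0.079). miR-135a-5p, miR-211-5p and miR-1934-5p, the better-known or partner arms of 3 called miRNAs, were not detected on either array. By contrast miR-30a had -0.20 and -0.13 in its arms, both arms of miR-22 had 0.03, and those of miR-31 had 0.25 and 0.29.

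Positions are those of RefSeq on GRCm38.p6, for 10 of the 12 called miRNAs (not miR-3960 and miR-6378) and 3 of the 4 with a bound. miR-5126 lies at chr1:84695890-84695911 on the plus strand within the Notch ligand gene Dner, miR-2861 at chr2:32712819-32712837 on the minus strand outside any listed gene, and miR-3102-5p at chr7:100882388-100882409 (minus) within Arhgef17. miR-135a-1-3p lies at chr9:106154179-106154200 (plus) within the spans of Glyctk and the lncRNA D030055H07Rik, miR-6538 at chr12:26414970-26414988 (minus) within Rnf144a, and miR-211-3p at chr7:64205868-64205888 (plus) within Trpm1. miR-6368 is at chr13:28710796-28710816 (minus) within the lncRNA 2610307P16Rik, and miR-2137 at chrX:72992113-72992133 (plus) within Zfp185. miR-1934-3p, at chr11:69663092-69663113 (plus), and miR-6366, at chr16:18165093-18165114 (minus), lie in no listed gene. miR-149-3p is at chr1:92850421-92850442 (plus) within the proteoglycan gene Gpc1, miR-721 at chr5:136375777-136375797 (minus) within Cux1, and the sequence of miR-680 occurs at 3 listed loci. Whether these positions are exonic or intronic was not analysed here.

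Neighbouring hairpins with a RefSeq position were grouped where they lay within 10000 bases, so the pair of miR-2861 (2.28) and miR-3960 (0.87) is not among these clusters. The 17 clusters with at least 2 detected miRNAs had medians between -0.26 and 0.14, with 2 all negative, 5 all positive and 10 mixed. The lowest was Mir99b/Mirlet7e/Mir125a at chr17:17830194-17830876, where 4 of 5 products were negative and miR-125a-3p was the exception. miR-221-3p and miR-222-3p, from 1 cluster on the X chromosome, were both at 0.01.

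The direction was then read from the other deposited signals. In the scanner files' summed signal per miRNA (a total over its probes) 14 of 203 miRNAs were higher on the high glucose array and 0 lower. Of the 12 called miRNAs 11 were among the 14; miR-1934-3p was lost, and miR-125a-3p, miR-149-3p and miR-680 were added. miR-5126 had a summed signal of 2070 (147, the software's error) with high glucose and 348 (24.7) with palmitate before scaling, and a difference of 2.32 after it. For miR-2861 the difference was 1.97 and for miR-3102-5p 2.22. In the deposited table, read by its titles, 4 of 203 were higher with high glucose and 23 lower, and all 12 called miRNAs were on the lower side: miR-5126 stood at 15.4 in the column titled high glucose and at 70.7 in the column titled palmitate, before the scaling used for the calls. With the columns exchanged, 23 were higher and 4 lower. The table's values are linear. Those that matched are the summed signals over 1 factor per column (22.5 and 29.3), and the values without a match depart from it. The column medians of 0.00444 (high glucose) and 0.00341 (palmitate) are the table's floor. The sources used here name no method for setting the factors.

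**Figure D5:**
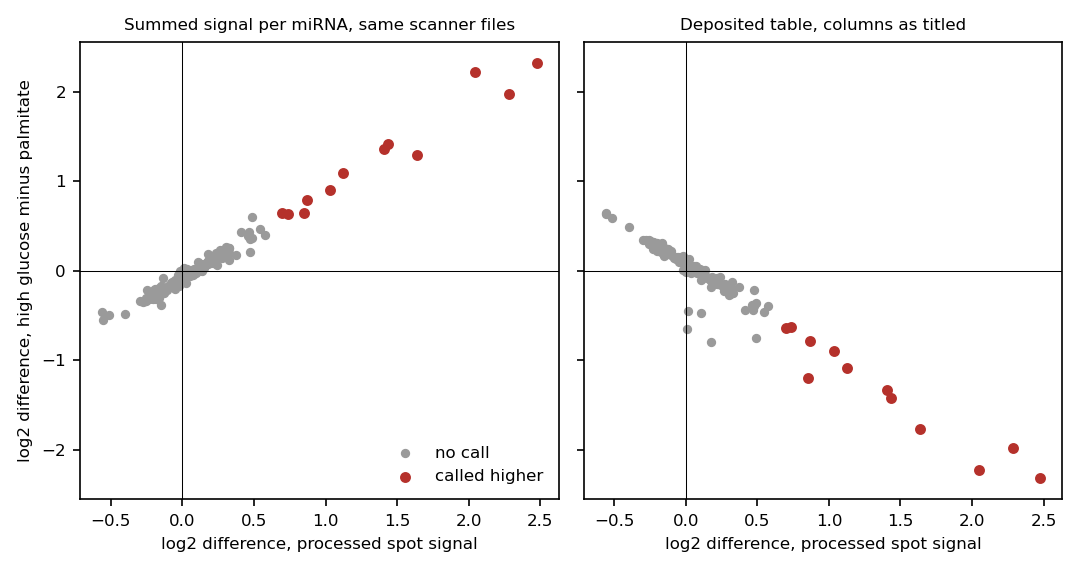
Log2 difference of high glucose minus palmitate from the summed signal (left) and from the deposited table by its titles (right) against that from the processed spot signal (horizontal axes), with the 12 called miRNAs in red. The left panel rises from lower left to upper right and the right panel falls, with miR-5126 at 2.32 on the left and -2.32 on the right.

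With 1 array per condition, a difference between these cultures cannot be told apart from one between the conditions. The direction of every difference rests on the labels of 2 scanner files that the value table contradicts.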

How the data were processed

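The authors scanned 6 Agilent 1-colour mouse miRNA arrays, all on 1 slide, and deposited scanner text files written by Agilent Feature Extraction (version 10.7.3.1, per the submitters' processing notes) and a value table. The deposited processed spot intensity is background-subtracted, per the file headers; the deposited summed signal per miRNA comes from the same files. No source used here says how the deposited table, a linear signal, was made; its columns were matched to the scanner files by value.

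Here, control spots and outlier spots were left out (49880 miRNA spots per array), and spots (median 18) were averaged per probe. The 75th percentile of the 281 probes that were detected on every one of the 6 arrays set each array's scale, values under an array's lowest detected signal were raised to it, and log2 was taken; the brightest probe stood for each miRNA. Calls needed detection on both arrays, 1.5-fold and 2 spot SE. A single array per condition limits the precision. The scripts were tested on simulated data. Alternatives changed the scaling, background (normexp in limma 3.58.1, R 4.3.3, offset 50), signal, probe rule, spots, detection and fold limit. Python 3.11.15 with numpy 2.4.6 and pandas 2.3.3 was used.

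The text names all called miRNAs, the 3 nearest to the limit inside it on each side, the 10 largest bounds, the 10 brightest miRNAs and the extremes of each list; others are named as arms, seed partners, markers or probes with a C run, chosen after their values were seen. The comparison and the lists were chosen with earlier results of these data known.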

Additional observations from a re-analysis of the deposited data

How the results depend on the processing

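Over 15 alternatives (all but the value table read by its titles), miR-5126, miR-2861, miR-3102-5p, miR-6538, miR-6378 and miR-211-3p kept their call in 15, miR-135a-1-3p, miR-6368 and miR-3960 in 14, miR-2137 and miR-6366 in 11 and miR-1934-3p in 9. miR-6366 had a difference of 0 under quantile normalisation. Of 712 values of named miRNAs under these alternatives, 675 kept their side of the limit, 22 passed it and 15 fell short of it. Of the 712, 46 changed sign, for 16 miRNAs without a call whose difference was at most 0.31 in size, and 0 of these belonged to a called miRNA. The count of lower miRNAs was 4 with the 75th percentile over all probes, 3 with the median and with quantile normalisation, 2 with the spike-in probes, and 1 with the even-numbered spots and with detection in 0.75 of spots. The count of higher miRNAs was 21 without scaling. The count detected on the palmitate array alone was 3 with the summed signal, 4 with the even-numbered spots and with detection in 0.75 of spots, and 2 with the odd-numbered spots. With the value table's columns exchanged, 23 were higher, 4 lower and 3 detected on the palmitate array alone. The cause of these changes was not tested.

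Read by its titles, the value table gave 4 higher and 23 lower, with 3 detected on the high glucose array alone and 25 on the palmitate array alone. The differences then reversed to -2.32 for miR-5126, -1.97 for miR-2861, -2.22 for miR-3102-5p, -1.76 for miR-135a-1-3p, -1.42 for miR-6538, -1.33 for miR-6378, -1.09 for miR-211-3p, -0.90 for miR-6368, -0.79 for miR-3960, -1.20 for miR-1934-3p, -0.63 for miR-2137 and -0.64 for miR-6366. They turned to 0.59 for miR-99b-3p and 0.64 for miR-301a-3p and miR-615-3p. This alternative exchanges the labels of the 2 samples by construction.

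Signals near the palmitate array's lowest detected value of 23.2 limit what can be said of dim miRNAs, and 24 of the 28 seen on the high glucose array alone have no bound of 1.5-fold.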
